A study of Mus musculus with 4 samples.

Results

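Vitamin C iTreg were compared with conventional iTreg on 1 Illumina bead array each. iTreg are induced regulatory T cells, which arise when naive CD4 T cells are stimulated in the presence of TGF-beta and begin to express Foxp3, the transcription factor of the regulatory lineage. Genes were compared if at least 1 of both iTreg arrays detected their probe (detection p-value under 0.01), which left 7756 of the 16590 genes with a named probe. Of these, 7394 were detected on both arrays, 153 on the vitamin C array only and 209 on the conventional array only.

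All cells came from male mice of the strain B6.Cg-Foxp3tm2Tch/J, in which green fluorescent protein (GFP) reports Foxp3. Naive cells (CD4+GFP-CD44low) were cultured for 5 to 6 days with antibodies to CD3 and CD28 (1 µg/ml each), IL-2 (15 ng/ml) and 10 ng/ml of TGF-beta, so both cultures shared these agents. The vitamin C culture also held vitamin C at 10 µg/ml, and the conventional culture held none. GFP+CD25+ cells were sorted from both cultures for RNA, so Foxp3-driven GFP and CD25 were used to choose the cells. Natural Treg (CD4+CD8-GFP+) and naive CD4 cells (CD4+CD8-GFP-CD44low) sorted directly from lymph node and spleen gave 1 array each and are used below only as reference levels. The number and age of the mice are not given in the sources used here. With 1 array a group there is no replicate, and vitamin C, culture, sort, labelling and array cannot be told apart. In bulk RNA, fewer cells of a type and less RNA per cell cannot be told apart either.

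Vitamin C (ascorbate) keeps the iron of oxoglutarate-dependent dioxygenases in its reduced state. These enzymes include the TET enzymes, which oxidise methylated cytosine in DNA, the JmjC histone demethylases and the prolyl hydroxylases. In regulatory T cells, ascorbate is known for supporting TET-dependent loss of methylation at the Foxp3 gene. Several pathways recur in the results. Interferon gamma acts on promoter elements called GAS and ISRE and switches on guanylate-binding proteins (GBPs), immunity-related GTPases (IRGs) and the machinery that loads peptides on MHC class I. The transcription factor ATF4 is made when amino acids run short or when protein folding is disturbed, and binds CARE elements at genes of amino acid uptake and synthesis.

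Both arrays carried the markers of their label. Of 27 Treg signature genes with a probe, 21 were detected on each iTreg array, and Foxp3 had a log2 signal of 8.27 on the conventional and 8.05 on the vitamin C array, against 8.09 in natural Treg and 4.80 (not detected) in naive CD4. Foxp3-driven GFP was used to sort all samples and CD25 to sort both iTreg samples. Foxp3 and Il2ra, the CD25 gene, are therefore no independent check of the label. Of 35 T cell receptor signalling genes with a probe, 31 were detected on the conventional and 30 on the vitamin C array. On both arrays, 2 of 10 B cell markers, 3 of 12 myeloid markers, 3 of 8 markers of CD8 T and NK cells and 0 of 4 erythroid markers were detected. The median deposited intensity was 144 on the conventional and 157 on the vitamin C array.

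Promoters of 6 genes are shown first, because the GBP and IRG genes and the ATF4 genes below differed as groups. All 6 windows hold a match, so they do not stand for their lists. Each is the stretch of 250 bases before the transcription start, from RefSeq on build GRCm38.p6, printed 5′ to 3′ on the gene's own strand. Capitals mark matches, on either strand, to GAS (TTCNNNGAA) or the ISRE core (GAAANNGAA) in Irf1, Gbp2, Gbp5 and Igtp, and to CARE (TGATGNAA) in Asns and Vldlr. The windows are chr11:53769764-53770013 (plus strand) for Irf1, chr3:142620413-142620662 (plus strand) for Gbp2, chr3:142496684-142496933 (plus strand) for Gbp5, chr11:58199306-58199555 (plus strand) for Igtp, chr6:7693210-7693459 (minus strand) for Asns and chr19:27216770-27217019 (plus strand) for Vldlr. RefSeq lists 2 starts each for Irf1 and Vldlr, and a window with a match is shown.
Irf1: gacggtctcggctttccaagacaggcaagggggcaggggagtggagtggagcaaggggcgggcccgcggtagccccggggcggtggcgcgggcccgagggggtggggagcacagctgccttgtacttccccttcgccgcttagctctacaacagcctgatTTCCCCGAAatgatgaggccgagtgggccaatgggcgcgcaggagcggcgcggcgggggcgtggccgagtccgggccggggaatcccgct
Gbp2: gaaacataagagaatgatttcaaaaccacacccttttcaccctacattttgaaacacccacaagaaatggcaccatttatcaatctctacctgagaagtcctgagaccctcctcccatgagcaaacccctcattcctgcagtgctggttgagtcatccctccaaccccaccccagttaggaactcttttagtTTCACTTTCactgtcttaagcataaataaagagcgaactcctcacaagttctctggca
Gbp5: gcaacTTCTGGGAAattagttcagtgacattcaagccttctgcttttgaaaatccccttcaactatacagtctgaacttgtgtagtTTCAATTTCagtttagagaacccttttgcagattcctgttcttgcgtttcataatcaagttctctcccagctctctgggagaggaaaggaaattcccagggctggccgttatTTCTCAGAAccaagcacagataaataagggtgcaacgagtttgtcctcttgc
Igtp: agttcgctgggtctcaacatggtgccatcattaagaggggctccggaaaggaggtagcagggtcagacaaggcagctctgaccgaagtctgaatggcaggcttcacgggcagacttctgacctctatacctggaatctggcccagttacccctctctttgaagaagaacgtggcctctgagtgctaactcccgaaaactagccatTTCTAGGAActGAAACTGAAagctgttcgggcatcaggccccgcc
Asns: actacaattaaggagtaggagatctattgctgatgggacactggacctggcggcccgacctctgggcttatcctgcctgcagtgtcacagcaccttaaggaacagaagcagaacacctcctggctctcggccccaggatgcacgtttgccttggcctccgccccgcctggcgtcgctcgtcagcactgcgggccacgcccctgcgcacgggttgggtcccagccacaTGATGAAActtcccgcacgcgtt
Vldlr: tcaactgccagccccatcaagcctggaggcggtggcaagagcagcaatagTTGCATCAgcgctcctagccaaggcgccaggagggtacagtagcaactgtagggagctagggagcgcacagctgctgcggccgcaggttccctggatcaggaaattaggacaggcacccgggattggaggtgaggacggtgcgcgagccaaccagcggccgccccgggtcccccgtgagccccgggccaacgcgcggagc
The GAS match of Irf1 begins 90 bases before its start, the ISRE core of Gbp2 58 bases before, and the CARE of Asns 23 bases before. Gbp5 holds an ISRE core 164 bases before its start and GAS matches 245 and 52 bases before it, while in Igtp a GAS match at 45 bases and an ISRE core at 34 bases lie side by side without overlap. A match describes these letters and shows no binding.

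Values are background-corrected, quantile-normalized log2 signals, and each difference is the vitamin C array minus the conventional array on that scale. The median difference over the 7756 genes was -0.0073, the median size 0.14, and 93.9% of genes lay within 1.5-fold. On the vitamin C array 3751 genes (48.4%) were above 0 and 3966 (51.1%) below it. At least 1.5-fold higher were 227 genes (2.93%), and 249 (3.21%) were at least 1.5-fold lower. At least 2-fold higher were 73 genes (0.941%), and 63 (0.812%) were at least 2-fold lower. Without background correction the 2-fold counts were 34 and 20. Quantile normalization gives all arrays the same distribution of values, so the median and the near-even shares above and below 0 are set by it and are no result. The 6 shares are the background for the gene groups below.

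**Figure D1:**
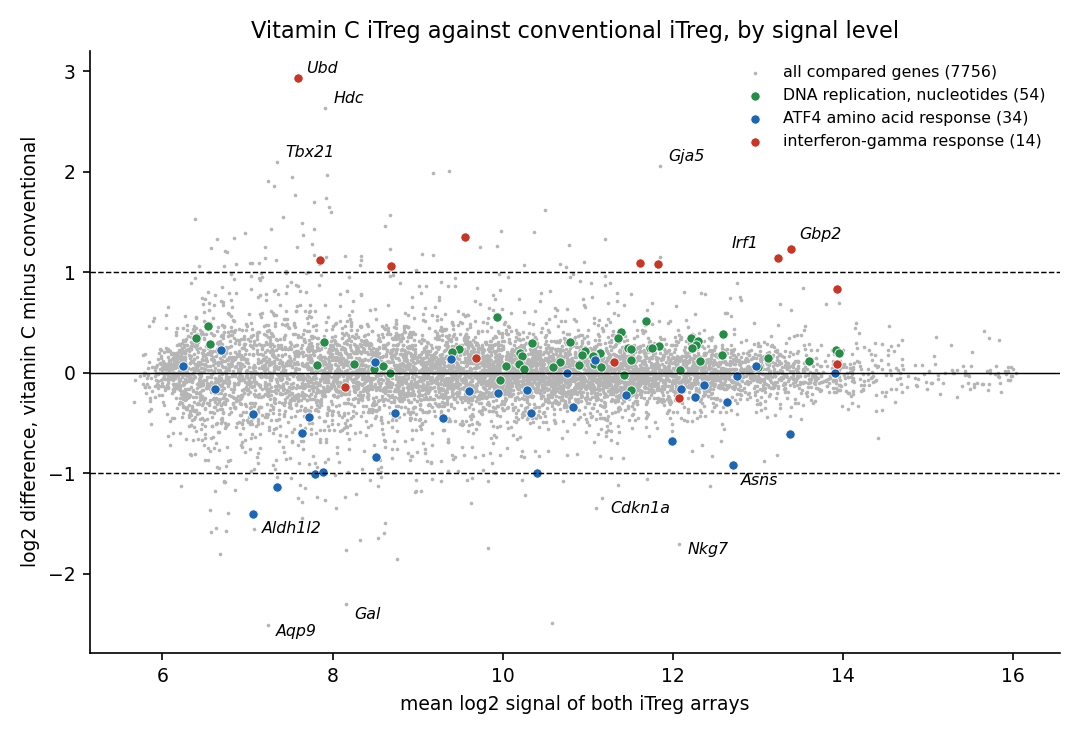
Each point is 1 of 7756 compared genes, placed by its mean normalized log2 signal on both iTreg arrays (horizontal axis) and its log2 difference, vitamin C minus conventional (vertical axis), with dashed lines at 2-fold and 3 gene lists in colour. Most interferon gamma response genes lie far above 0 at middle and high signal, most ATF4 genes lie below 0, and DNA replication genes form a narrow band just above 0.

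The spread of the differences depended on signal. Among 925 genes with a mean log2 signal of 7 to 8 the median size was 0.21, with 30 genes past 2-fold upward and 15 downward. Among the 536 genes at 13 or more it was 0.098, and the 2 that reached 2-fold, both higher, were Irf1 and Gbp2. Many of the genes at the ends of the ranking were therefore dim, which is why the agreement of separate probes is given beside them.

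Separate probes of a gene gave the only internal check, although they all read the same labelled RNA on the same arrays. Of 7756 genes, 2061 had 2873 further detected probes. Where the main probe differed by less than 0.1, 58.9% of 1158 further probes lay on the same side of 0. That share was 74.9% of 1209 probes for sizes of 0.1 to 0.3, 90.8% of 379 up to 1.5-fold, 92.4% of 92 from there to 2-fold, and 97.1% of 35 beyond 2-fold (34 probes). The Wilson 95% interval of the last share, 85.5% to 99.5%, covers counting error only. It treats the 35 probes as independent although they come from 26 genes, so it may be too narrow. Of the 26 genes past 2-fold with a further probe, 25 had all their probes on the same side, and 25 of the 35 probes passed 2-fold themselves. The exception was Clec2e, a C-type lectin gene, at 1.95 and -0.17. Over 2694 pairs detected on both arrays, 2 probes of a gene disagreed by a median of 0.12 and by up to 0.32 in 90% of pairs, with Pearson's r of 0.71 across pairs, which are not independent. A difference of a single gene below about that 90% limit was thus no larger than probes of 1 gene commonly disagreed.

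**Figure D2:**
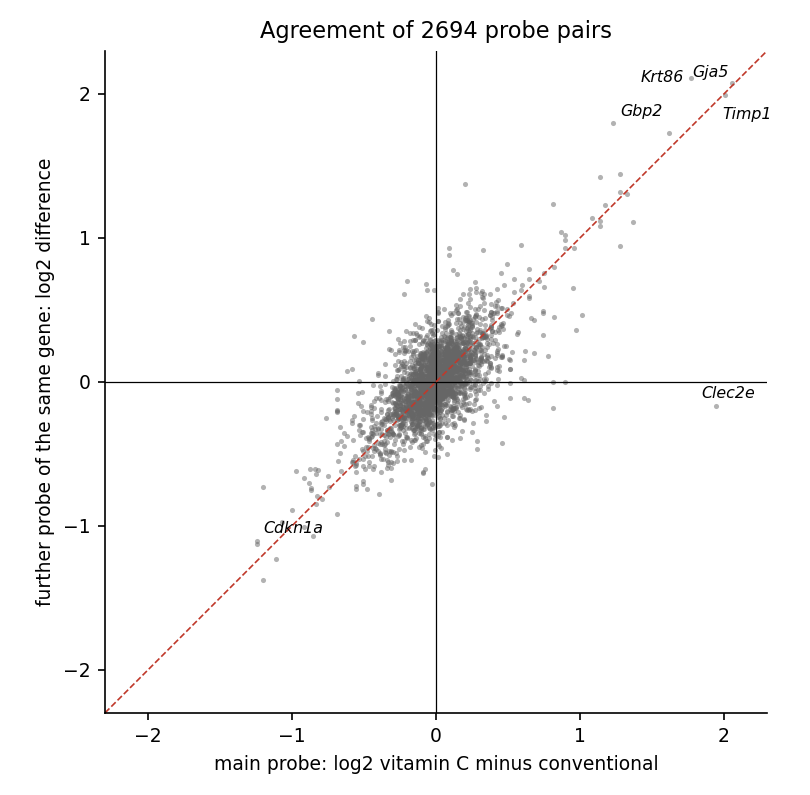
Each of 2694 points is a pair of probes of 1 gene, both detected on both iTreg arrays, with the log2 difference (vitamin C minus conventional) of the main probe on the horizontal axis and of a further probe on the vertical axis, and the dashed line marks equality. Far from 0 the pairs follow the line, as for Gja5, Timp1, Gbp2 and Cdkn1a, and Clec2e lies off it.

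Genes induced by interferon gamma were the most displaced list. Of its 14 compared members, 12 were above and 2 below 0, 9 were past 1.5-fold upward, 8 of them past 2-fold, and 0 past 1.5-fold downward, and the median was 1.07 against -0.0073 over all genes. The transcription factor gene Irf1 had a log2 signal of 12.68 on the conventional and 13.82 on the vitamin C array, beside 14.21 in natural Treg and 14.07 in naive CD4. Its difference was 1.14, and the other 4 probes gave 1.08, 1.12, 1.27 and 1.42. All 5 probes of Irf1 thus passed 2-fold, and the vitamin C level lay between conventional iTreg and the ex vivo cells.

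The GBPs, GTPases that coat and break open the compartments of intracellular microbes, were higher without exception among those detected. Gbp2 went from 12.78 to 14.00 (1.23, with 1.80 on its other probe), above natural Treg (13.43) and naive CD4 (13.22). Gbp3 went from 11.29 to 12.37 (1.08 and 1.14 on its probes), Gbp5 from 8.88 to 10.23 (1.35), and Gbp7 from 7.30 to 8.42 (1.12 and 0.73). Gbp2b went from 7.89 to 9.46 (1.57) and Gbp10 from 6.64 to 8.20 (1.55), and both stayed below natural Treg at 11.71 and 9.82. Naive CD4 cells had 9.42 for Gbp10 and did not detect Gbp2b. Probes of Gbp4, Gbp8, Gbp9 and Gbp11 were detected on neither iTreg array. GBP genes are close copies of each other, and how far 1 GBP probe also reads another was not tested.

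The IRGs, GTPases that act on pathogen vacuoles, followed, though not on each probe. Irgm2 went from 11.07 to 12.16 (1.09), Igtp from 13.52 to 14.35 (0.83) and Tgtp1 from 8.16 to 9.22 (1.07). The main probe of Irgm1 differed by 0.09 at a high signal of 13.89 and 13.98, while its further probes differed by 0.88 and 0.93. For Irgm1 the size therefore depended on the probe. Ubd, which encodes the ubiquitin-like modifier FAT10, was not detected on the conventional array (6.09) and had 9.10 on the vitamin C array. That is at least 7.63-fold higher on the background-corrected scale. Neither natural Treg nor naive CD4 detected Ubd. Over the list, 9 of 9 further probes were above 0, with a median of 1.12. When the members detected on neither array were let in, the list's median was 0.31.

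Other members of the list lay near 0 or below it. Socs1, the inhibitor of JAK kinases, differed by -0.14, Irf8 by -0.25, the PD-1 ligand genes Cd274 and Pdcd1lg2 by 0.11 and 0.14. Ifng itself was detected on neither iTreg array, with detection p-values of 0.27 on the conventional and 0.12 on the vitamin C array, and neither were the chemokine genes Cxcl9 and Cxcl10. The receptor genes Ifngr1 and Ifngr2 were lower, at -0.45 and -0.42.

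**Figure D3:**
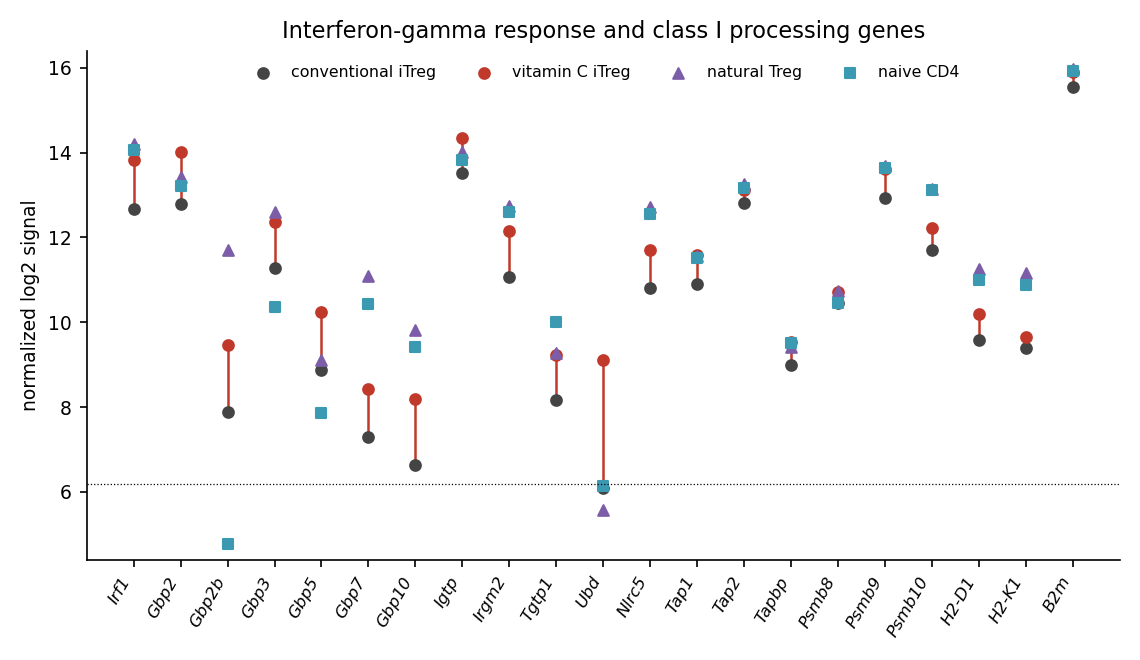
Normalized log2 signal (vertical axis) of 21 interferon gamma response and MHC class I genes on the 4 arrays, 1 array a group, with the dotted line at the lowest detected signal of the iTreg arrays. Vitamin C iTreg lie above conventional iTreg for each gene shown, and for Gbp2, Igtp, Tap1 and Psmb9 the vitamin C signal is close to or above that of the ex vivo cells.

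MHC class I and its peptide supply moved the same way with smaller sizes. Of 19 compared genes 17 were above and 2 below 0, 4 were past 1.5-fold upward and 0 downward, and the median was 0.29. Nlrc5, the transactivator of class I genes, went from 10.81 to 11.71 (0.90). Tap1, a subunit of the peptide transporter, went from 10.89 to 11.58 (0.69), against 11.55 in natural Treg and 11.52 in naive CD4. Psmb9, an immunoproteasome subunit, went from 12.92 to 13.61 (0.68), against 13.69 and 13.63. For Tap1 and Psmb9 the vitamin C signal lay within 0.1 of both ex vivo arrays. The class I heavy chain gene H2-D1 went from 9.58 to 10.20 (0.63), the peptide editor gene Tapbp differed by 0.54 (0.72 on its other probe) and the immunoproteasome gene Psmb10 went from 11.71 to 12.23 (0.52). The light chain gene B2m differed by 0.35 and 0.31 on its probes, and H2-K1 by 0.27 and 0.70. Psme2 at -0.19 and H2-Q7 at -0.01 were below 0. Heavy chain genes are also near copies, and their probes may read each other.

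Genes usually listed under type I interferon were less displaced. Of 26 compared, 15 were above and 10 below 0, 3 were at least 1.5-fold higher and 0 lower, and the median was 0.14. Oasl2 (from 7.76 to 8.92, 1.16), the membrane restriction factor gene Ifitm3 (0.79) and the IRG gene Ifi47 (0.60) were the highest. The RNA sensor genes Dhx58 and Ddx58 were at -0.43 and -0.42, and Usp18, the brake on the type I receptor, was at -0.24. The type I list had its median at 0.0018 when genes below detection were let in.

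In the promoter windows, 7 of the 14 interferon gamma genes (50%) held a GAS match and 10 (71.4%) an ISRE core. The same shares over 6439 compared genes with a RefSeq promoter were 7.38% and 7.50%. The list was made of genes known to respond to interferon gamma. Its larger shares may come from that choice alone and say nothing on vitamin C. Of 15 MHC class I genes with a promoter, 2 (13.3%) held a GAS match (H2-M3 and Psmb8) and 2 an ISRE core (H2-T23 and B2m). Genes above 0 and genes near 0 both held matches: Irf8 had a GAS match and Socs1 and Cd274 an ISRE core. A gene with several listed starts counted when any of its windows held the motif, and matches to different motifs may overlap.

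T helper 1 genes were split. Of 18 compared, 9 were above and 9 below 0, with 4 at least 1.5-fold higher, 2 at least 1.5-fold lower and a median of 0.01. The lineage factor gene Tbx21 had 6.30 on the conventional array, near the lowest detected signal of 6.16, and 8.40 on the vitamin C array (2.10). The IL-12 receptor chain genes Il12rb1 (8.20 to 9.16, 0.96, with 0.93 on its other probe) and Il12rb2 (6.70 to 7.65, 0.96) were also higher. Stat4, which carries the IL-12 signal, went the other way, from 9.09 to 8.05 (-1.03, and -1.05 on its other probe), and both ex vivo arrays lay far above it at 12.29 and 12.23. The chemokine genes Ccl3 (0.73) and Ccl4 (0.40) were above 0, while the receptor genes Il18rap (-0.48) and Cxcr3 (-0.27) and the inhibitory receptor gene Havcr2 (-0.64) were below. Receptor and factor genes of 1 helper programme thus differed in both directions.

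Among T helper 2 genes, 3 of 8 compared were above and 5 below 0. The repressor gene Gfi1 was at -1.05, the lineage factor gene Gata3 at -0.47 and the chemokine receptor gene Ccr4 at 0.97. The median of -0.22 turned to 0.15 when detection on both arrays was required, which left out Il13 and Il24.

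Of 16 compared checkpoint and B7 genes 13 were above 0, 2 were past 1.5-fold upward and 2 downward, and the median was 0.17. The costimulatory ligand gene Cd86 went from 10.14 to 11.42 (1.28, and 1.32 and 1.45 on the other probes), against 11.20 in natural Treg. Lag3, an inhibitory receptor gene, went from 10.42 to 11.51 (1.10), against 10.60 in natural Treg and 7.04 in naive CD4. Cd80, the gene of the sister ligand to CD86, went from 10.33 to 9.43 (-0.90), and the inhibitory receptor gene Havcr2 differed by -0.64. Cd86 and Cd80 thus differed in opposite directions on these arrays. Pdcd1 (0.36), Cd200 (0.29) and Cd5 (0.27) were above 0 and Btla (-0.23) below.

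Secreted mediators were lower more often than higher. Of 24 effector cytokine and chemokine genes 9 were above and 15 below 0, 1 was past 1.5-fold upward and 5 downward, and the median was -0.13. With no detection filter that median was 0.036. Xcl1, the chemokine gene for cross-presenting dendritic cells, went from 9.35 to 7.71 (-1.64). The haematopoietic growth factor gene Il3 went from 8.18 to 7.06 (-1.12), and neither ex vivo array detected it. Tnfsf11, which encodes RANK ligand, went from 9.96 to 8.98 (-0.98). Tnfrsf11b, which encodes osteoprotegerin, the decoy receptor for RANK ligand, was detected on the conventional array alone, at least 3.49-fold lower on the background-corrected scale. Ligand and decoy receptor were thus lower together. Ebi3, a subunit shared by IL-27 and IL-35, differed by -0.84. Of 7 compared cytotoxic granule and killer lectin genes 2 were above and 5 below 0, with a median of -0.26. Srgn (0.68) and Lamp1 (0.16) were above 0, and Ctsw was near it at -0.05. At the low end, Nkg7, a granule membrane gene, went from 12.93 to 11.23 (-1.70) and the killer lectin gene Klrd1 from 8.68 to 7.69 (-0.98). Both also count among the CD8 T and NK cell markers, whose summed linear signal was 9677 on the conventional and 4681 on the vitamin C array, with Cd8b1 as the third detected marker at 0.56. Nkg7 alone gave 7801 and 2396 of these sums, which therefore largely restate its own difference. The part of other cells in these differences was not tested.

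ATF4 target genes were the list most displaced downward among those with over 10 compared genes. Of 34 compared genes 7 were above and 27 below 0, 0 were at least 1.5-fold higher, 10 at least 1.5-fold lower and 3 at least 2-fold lower, and the median was -0.26. Of 10 further probes 9 were below 0, with a median of -0.39. Among its genes of amino acid and folate metabolism, Asns, the asparagine synthetase gene, went from 13.17 to 12.25 (-0.92, and -0.67 and -1.01 on its other probes), while natural Treg had 8.19 and naive CD4 6.25. Gpt2, an alanine transaminase gene, went from 8.30 to 7.29 (-1.01), and Aldh1l2, a mitochondrial folate enzyme gene, from 7.77 to 6.37 (-1.41). For each of these the vitamin C level stayed above that of both ex vivo arrays.

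Uptake genes of the same programme were lower as well. Slc6a9, a glycine transporter gene, went from 10.90 to 9.91 (-0.99). Slc7a5, which encodes the large neutral amino acid transporter LAT1, went from 13.69 to 13.08 (-0.61). Slc1a4 (-0.45), Slc1a5 (-0.41), Slc7a3 (-0.39) and Slc38a2 (-0.29) had smaller differences, and Slc3a2, the LAT1 partner gene, was at 0.22 with a dim probe. Of these transporter genes, Slc3a2 alone was above 0 apart from Slc38a1 at 0.07.

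Regulators of the response were lower to different degrees. The pseudokinase gene Trib3 went from 7.91 to 6.78 (-1.13), the mTORC1 inhibitor genes Ddit4 and Sesn2 differed by -0.68 and -0.60, and the secreted factor gene Stc2 by -0.98. The lipoprotein receptor gene Vldlr differed by -0.83, with -0.85 and -0.64 on its other probes. Atf4 itself was at -0.22 and Atf5 at -0.34. Ddit3, which encodes the death-linked factor CHOP, was at 0.13 and Chac1, a glutathione-degrading enzyme gene, at 0.14, and serine synthesis genes lay near 0, with Phgdh at -0.17 and Psat1 at -0.03. The programme was therefore lower in part, not as a whole. A CARE match was found in 4 of 28 promoters (14.3%: Asns, Chac1, Vldlr and Nupr1) against 2.58% of 6439 compared genes. Of these 4 genes, Nupr1 differed by 0.07. The list was made of genes known for control by ATF4, so its larger share may come from that choice alone.

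**Figure D4:**
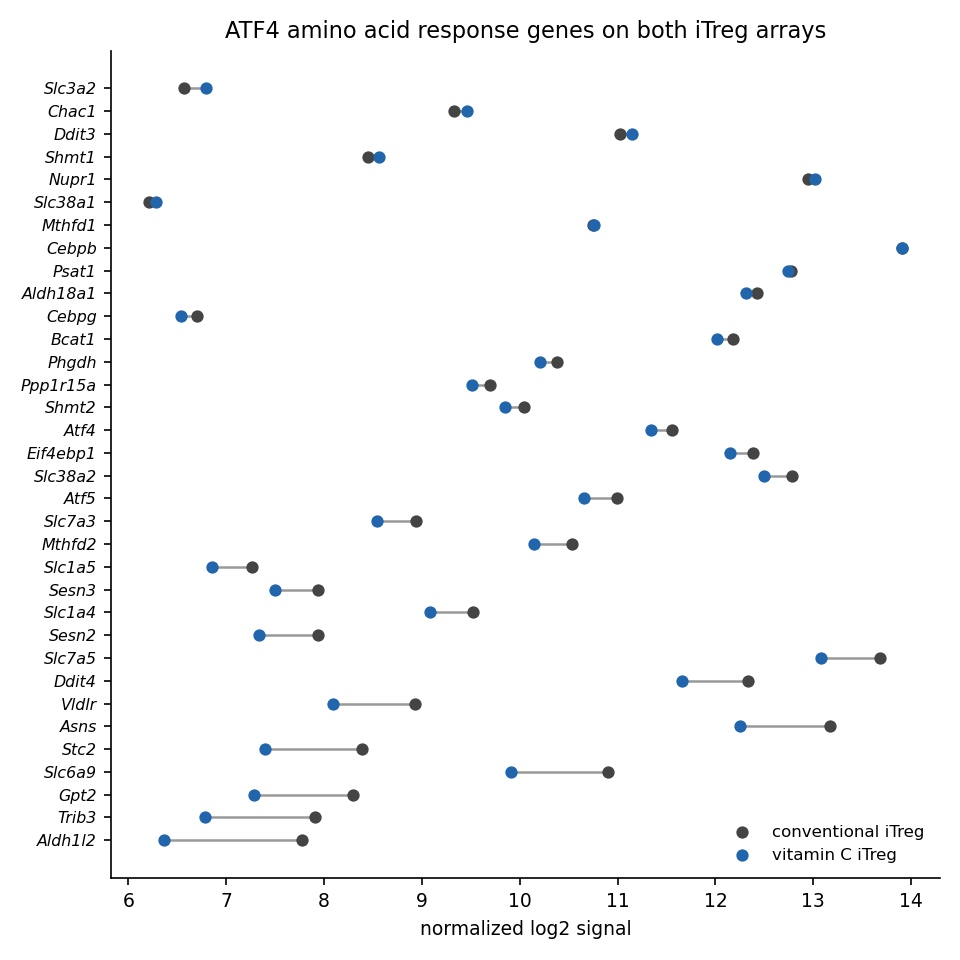
Normalized log2 signal (horizontal axis) of 34 ATF4 amino acid response genes on the conventional (grey) and vitamin C (blue) iTreg arrays, 1 array each, ordered by difference. The blue point lies left of the grey point in 27 genes, by over 0.9 for Asns, Stc2, Slc6a9, Gpt2, Trib3 and Aldh1l2.

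Cytosolic aminoacyl-tRNA synthetase genes, which ATF4 also regulates, had 5 of 17 above and 12 below 0 and a median of -0.16. Aars (-0.45), Eprs (-0.38) and Iars (-0.34) were lowest and Rars (0.29) and Farsa (0.27) highest. Unfolded protein response genes lay on the other side, with 17 of 21 above 0 and a median of 0.13. Among them were Creld2 (0.45), Derl2 (0.44), the chaperone genes Hspa5 (0.23) and Hsp90b1 (0.23), and below 0 the sensor kinase gene Eif2ak3 (-0.22) and Herpud1 (-0.20). The unfolded protein response list and the amino acid lists thus had medians of opposite sign, with small differences in most members. In the unfolded protein response list 0 of 21 genes reached 1.5-fold. Most of them differed by no more than probes of 1 gene commonly disagreed.

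Proliferation genes were shifted narrowly and almost uniformly. Of 54 DNA replication and nucleotide synthesis genes 51 were above and 3 below 0, none reached 1.5-fold, and the median was 0.19. Largest were the origin licensing gene Cdc6 (9.66 to 10.22, 0.56), the ligase gene Lig1 (0.52), the primase gene Prim1 (0.47), the thymidylate synthase gene Tyms (0.41) and the flap endonuclease gene Fen1 (0.39). Gart (-0.17), Cad (-0.07) and Orc5 (-0.03) were below 0. Of 27 further probes 21 were above and 6 below 0, with a median of 0.092, smaller than for the main probes. A further Cdc6 probe, dim at 6.21 and 5.55, gave -0.66.

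Mitosis and spindle genes had 47 of 51 above and 4 below 0, with a median of 0.20, and 25 of 26 further probes above 0. The microtubule regulator gene Stmn1 went from 8.64 to 9.43 (0.79), the centriole kinase gene Plk4 from 8.69 to 9.23 (0.54), and the kinesin genes Kif18a and Kif4 differed by 0.47 and 0.41. The securin gene Pttg1 (-0.46), Cdc25b (-0.07), Bub3 (-0.07) and Hjurp (-0.06) were below 0. Most single genes of both proliferation lists differed by no more than probes of 1 gene commonly disagree, so the lists are described by their counts, against 48.4% of all genes above 0.

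A pair of CDK inhibitor genes was lower, and the others were closer to 0. Cdkn1a, which encodes the cyclin-dependent kinase inhibitor p21, went from 11.79 to 10.55 (-1.25, and -1.10 and -1.13 on the other probes), and neither ex vivo array detected it. Cdkn1c, which encodes p57, went from 8.39 to 7.42 (-0.96). The inhibitor genes Cdkn2d (-0.20), Cdkn1b (-0.06) and Cdkn2c (0.04) and the retinoblastoma family genes Rbl2 (-0.26), Rb1 (0.15) and Rbl1 (0.41) lay on both sides of 0. Among the 22 compared D-type cyclin, CDK inhibitor and E2F genes the median was 0.06, with Ccne2 at 0.52 and Ccnd2 at -0.46, so the list as a whole had no direction. Of 28 BCL2 family and death genes 10 were above and 18 below 0. The BH3-only death genes Pmaip1 (-0.74 and -0.73 on its probes), Bbc3 (-0.69, -0.43 and -0.20) and Bcl2l11 (-0.56, -0.58 and -0.73) were lower on each of their probes, while Bad (-0.03) and Bid (-0.02) were near 0 and Bik was at 0.36. The survival genes Bcl2 (-0.38) and Mcl1 (-0.31) were below 0 too, and Birc3 was at 0.63.

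Constitutive proteasome genes were another narrow group, with 27 of 30 above and 2 below 0, 0 past 1.5-fold and a median of 0.16. Psmd1 (0.44), Psma4 (0.37), Psmd10 (0.34) and Psmd12 (0.31) led, and 12 of 13 further probes were above 0. Cytosolic ribosomal protein genes (19 of 56 above and 34 below 0, median -0.02), mitochondrial ribosomal protein genes (39 of 70 above, median 0.01) and respiratory chain subunits (38 of 72 above, median 0.02) gave no such shift. Median log2 signals on the conventional array were 12.54 for the proteasome list and 15.31, 11.43 and 12.47 for these other lists in turn. A role of signal level was not tested.

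Genes of naive and resting T cells were lower nearly throughout. Of 19 compared 1 was above and 18 below 0, 3 were at least 1.5-fold lower and 0 higher, the median was -0.26, and 13 of 14 further probes were below 0. Il7r, the receptor gene for the survival cytokine IL-7, went from 10.12 to 9.05 (-1.07 and -0.97 on its probes), with 12.49 in natural Treg and 13.84 in naive CD4. The quiescence and migration factor gene Klf2 went from 12.62 to 11.84 (-0.77), Klf3 from 9.13 to 8.38 (-0.76) and the TCF family gene Lef1 from 8.18 to 7.61 (-0.57 and -0.59). Each of these 4 genes was lower on the vitamin C array than on all others. Slfn2, a gene that keeps T cells quiescent, was the exception at 0.49. Of 7 GIMAP genes, GTPases of lymphocyte survival, 6 were below 0 (median -0.12), with Gimap6 at -0.43 and Gimap7 at -0.39.

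TGF-beta and SMAD genes had 13 of 32 above and 19 below 0 and a median of -0.11. Over the alternative settings that median ranged from -0.113 to -0.0046. The signal transducer gene Smad3 went from 9.81 to 8.99 (-0.82), the inhibitor-of-DNA-binding genes Id3 and Id1 differed by -0.59 and -0.39, and the receptor genes Tgfbr1 and Tgfbr2 by -0.30 and -0.28. Timp1, an inhibitor of matrix metalloproteinases, stood apart at 8.37 and 10.38 (2.01 and 1.99 on its probes). Among matrix genes Mmp14, a membrane metalloproteinase gene, went from 7.57 to 8.73 (1.16) and the collagen gene Col15a1 from 10.22 to 11.27 (1.05). Only 13 of 61 matrix genes with a probe were compared, and 9 of the 13 were above 0. The list's median was 0.17, and 0.009 with no detection filter.

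Treg identity genes as a list had no direction. Of 21 compared 9 were above and 11 below 0, with a median of -0.02 and 3 at least 1.5-fold lower. The activation marker gene Cd83 (10.41 to 9.41, -0.99), Ebi3 (-0.84) and the semaphorin co-receptor gene Nrp1 (12.88 to 12.05, -0.83, and -0.79 on its other probe) were lowest, and the costimulatory receptor gene Tnfrsf4 was highest at 0.30. Il2ra differed by 0.06 and Ctla4 by 0.08, at signals above 13 on both arrays. Of 22 DNA methylation and demethylation genes 11 were above and 10 below 0 (median 0.01). Of 19 JmjC demethylase genes 7 were above and 12 below 0, and of 20 other oxoglutarate dioxygenase genes 9 were above and 11 below 0. Egln3, a prolyl hydroxylase gene of hypoxia sensing, differed by 0.56. The methylation, JmjC and other dioxygenase lists thus had no common direction at the RNA level. The methylation list also holds genes of DNA methylation itself, so it does not stand for the TET genes alone.

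**Figure D5:**
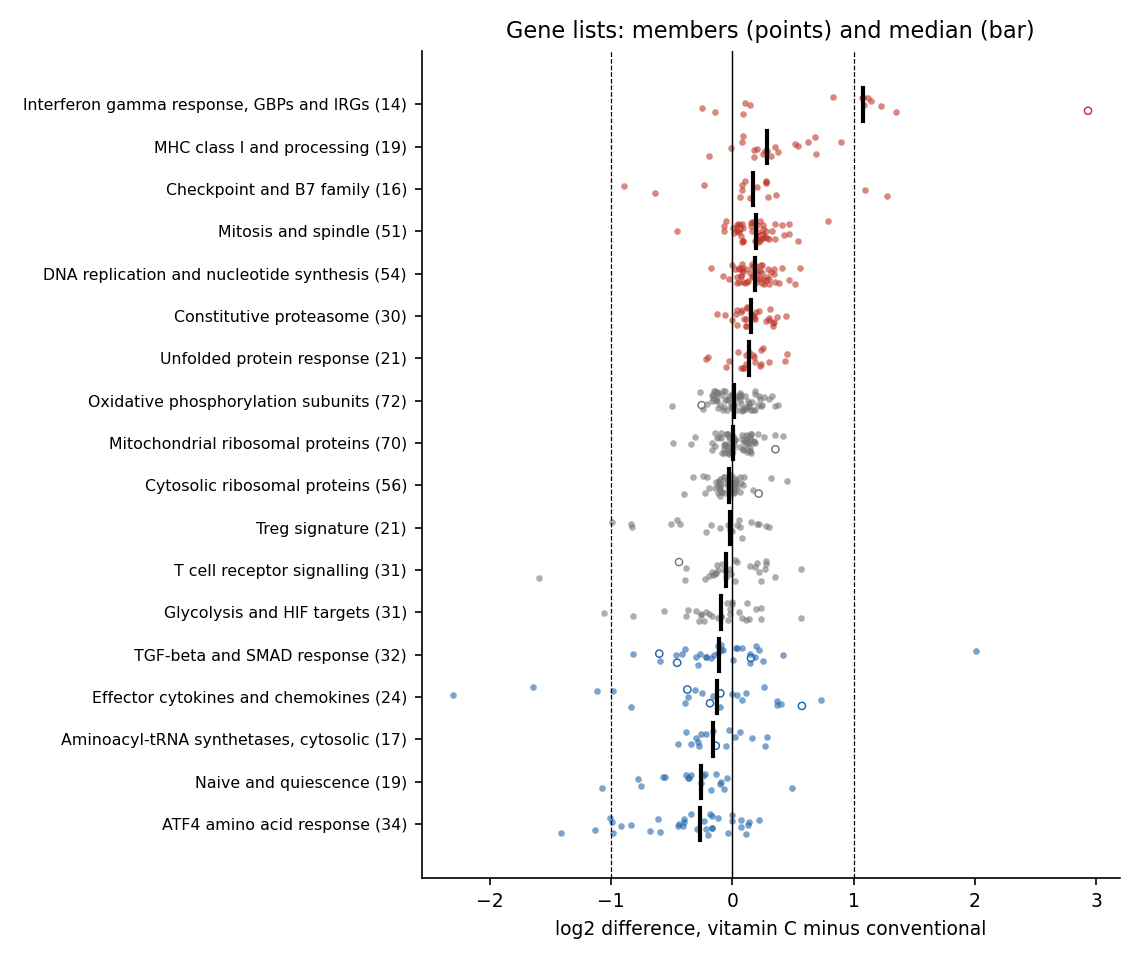
Log2 differences (vitamin C minus conventional, horizontal axis) of the members of 18 gene lists, with 1 point a gene, open circles for lower bounds, a bar at the list median, the number of compared genes in brackets and dashed lines at 2-fold. Interferon gamma response genes reach a median of 1.07, the proliferation lists sit in narrow bands near 0.2, ATF4 and naive genes centre near -0.26, and ribosomal and respiratory genes centre on 0.

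Some smaller groups completed the picture. Of 18 metal-handling genes 16 were above 0 (median 0.15), and the zinc importer genes Slc39a10 (0.57), Slc39a4 (0.52) and Slc39a6 (0.41) were among them. Slc39a14 was detected on the vitamin C array alone, at least 2-fold higher. The metallothionein gene Mt1 differed by 0.16 at 15.00 and 15.16, far above naive CD4 at 5.20. Glycolysis and hypoxia genes had 9 of 31 above 0 (median -0.09), with the muscle-type enolase gene Eno3 at -1.06 and the growth factor gene Vegfa at -0.82 and -0.61 on its probes. Of 35 KLF, IRF and other immune transcription factor genes 11 were above and 24 below 0. Irf5 went from 10.88 to 9.66 (-1.22), the opposite direction to Irf1, and Batf (0.63) and Batf3 (at least 2.13-fold lower) also differed in opposite directions.

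Beyond the 10 most displaced genes on each side, ranks 11 to 30 held further members of these groups and many genes outside them. On the higher side, the large transcription factor gene Zfhx3 went from 7.06 to 8.80 (1.74, and 1.68 on its other probe) and Eng, which encodes the TGF-beta co-receptor endoglin, from 7.13 to 8.79 (1.65). Dab2, an endocytic adaptor gene known in regulatory T cells, went from 9.69 to 11.31 (1.62, and 1.73 on its other probe). Gldc, the glycine decarboxylase gene, went from 10.55 to 11.87 (1.33 and 1.30 on its probes). Zfhx3, Eng, Dab2 and Gldc were detected on neither ex vivo array. The extracellular ATP receptor gene P2rx7 went from 7.12 to 8.40 (1.28, and 1.32 and 0.94 on its other probes), with 9.98 in natural Treg. Lgals7 (1.69), Gsta4 (1.60), App (1.49), Wdr78 (1.46), Cuzd1 (1.44), Trpm6 (1.43), Syp (1.41), Psg23 (1.40), Tuba8 (1.39), Gpld1 (1.37) and Slc17a8 (1.34) filled the other places beside the GBPs and Cd86.

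On the lower side, Cd70, the ligand gene of the costimulatory receptor CD27, went from 7.76 to 6.34 (-1.42), and its receptor gene Cd27 differed by -0.37. Tgm2, a transglutaminase gene, went from 8.72 to 7.37 (-1.35), and the phospholipase gene Pla2g4f from 11.77 to 10.42 (-1.35), with 10.39 in natural Treg. H2-Oa, a chain of the class II peptide-loading regulator, went from 8.77 to 7.54 (-1.23). P2ry1, a receptor for extracellular ADP, went from 9.57 to 8.40 (-1.17), so the purine receptor genes P2rx7 and P2ry1 differed in opposite directions. Nme4, a nucleoside diphosphate kinase gene of mitochondria, differed by -1.20, with -1.38 and -0.73 on the other probes. Reep6 (-1.44), Dppa1 (-1.30), Snai3 (-1.28), Ltf (-1.27), Tubg2 (-1.24), Obp2a (-1.23), Scin (-1.19), Tesc (-1.18), Selenbp1 (-1.17) and Rtkn (-1.14) filled the other places beside Aldh1l2, Cdkn1a, Irf5 and Trib3.

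Both arrays detected 65 of the 73 genes past 2-fold on the higher side and 51 of the 63 on the lower side, and the other 8 and 12 rested on a lower bound. Of the 63 lower genes, 2 carry provisional names and are not named here. A bound compares the detected signal with the lowest detected signal of the array that missed the gene. It is a floor on the background-corrected scale only, and the deposited intensities stand closer together. Batf3, for example, had deposited intensities of 274 on the conventional and 191 on the vitamin C array, and Ubd 171 and 739. Besides Ubd, genes detected on the vitamin C array alone included the arsenic methyltransferase gene As3mt (at least 2.36-fold, and a further probe at 2.07 log2), Ildr1 (at least 2.32-fold) and the matricellular gene Ccn4 (at least 2.3-fold, a difference that became 0 when probes were averaged). Detected on the conventional array alone were Gpr183, the oxysterol receptor gene that guides lymphocyte position (at least 3-fold lower, while natural Treg had 10.94), the cytidine deaminase gene Apobec1 (at least 2.63-fold), Slc6a12 (at least 2.91-fold) and the complement regulator gene Cd59a (at least 2.25-fold). For Gpr183 and Apobec1 both ex vivo arrays lay well above both iTreg arrays.

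Families of genes that share a symbol stem gave a view that did not rest on chosen pathways. Of 197 stems with at least 6 compared genes, 17 had at least 90% of members on 1 side or a median of at least 0.2 in size. How many stems of unrelated genes would pass these limits was not worked out, so the stems are listed as values only. The Gbp genes led, with 6 of 6 at least 1.5-fold higher and a median of 1.29. Next on the higher side were the alpha tubulin genes (Tuba, 6 of 6 above 0, median 0.27), the glycosyltransferase genes Galnt (5 of 7, 0.29), the proteasome stems Psmd (12 of 13, 0.22) and Psmb (9 of 10, 0.15), the TFIID subunits Taf (12 of 13, 0.18), the division genes Cdca (6 of 6, 0.18) and Anapc (7 of 7, 0.15), and the dim olfactory receptor genes Olfr (10 of 11, 0.06).

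On the lower side the Arhgef genes, which encode guanine nucleotide exchange factors, had 8 of 8 below 0 with a median of -0.38, led by Arhgef25 (-0.93) and Arhgef18 (-0.49). The aldo-keto reductase genes Akr had 6 of 7 below 0 (median -0.36), led by Akr1b8 (-1.04) and Akr1c18 (-0.72), and the TNF ligand genes Tnfsf 6 of 7 (-0.27). Claudin (Cldn, 5 of 7, -0.23), Rassf (5 of 6, -0.22), Gtpbp (5 of 6, -0.21), the Groucho co-repressor stem Tle (6 of 6, -0.15) and the arginine methyltransferase stem Prmt (6 of 6, -0.12) were the other lower stems. Apart from the Gbp genes, medians of these families lay below 1.5-fold.

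Genes that lie next to each other were occasionally displaced together. Of 3622 pairs of compared genes that follow each other in the RefSeq table, 13 had both members at least 1.5-fold higher and 7 both at least 1.5-fold lower. Single genes passed these limits in 2.93% and 3.21% of all compared genes. How many pairs unrelated neighbours would give was not worked out, so the pairs are listed as values only. A single run of Pdlim5 and 5 GBP genes in the order Gbp5, Gbp7, Gbp3, Gbp2b and Gbp2 gave 5 of these pairs. Both further probes of Pdlim5 lay just below 0, at -0.18 and -0.00, so they do not follow the probe that gave it its place in the run. Igtp with Irgm2, and Psmb9 with Tap1 in the MHC region, were other pairs. Pairs outside the interferon genes were Cd86 with Ildr1, Ehd3 (1.09) with Xdh (0.69), Dram1 (0.98) with Gnptab (0.59), Galnt6 (0.83) with Slc4a8 (0.95), Aldh5a1 (1.00) with Gpld1 and Slc39a14 with Piwil2 (1.10). Lower pairs included Slamf9 (-0.83) with Igsf9 (-0.65), Ankrd23 (-0.76) with Ankrd39 (-0.66) and Mmp11 (-0.89) with Chchd10 (-0.65). A lower run held the lipocalin genes Lcn10 (a bound of -1.36) and Obp2a (-1.23), followed by Bmyc (-0.87), which is not a lipocalin gene. Shf (-0.66) with Slc28a2 (-0.80) and Cask (-0.62) with Gpr34 (a bound of -0.81) were the remaining lower pairs.

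The displaced genes were often absent from cells taken ex vivo. Of the 73 genes at least 2-fold higher, 30 (41.1%) were detected on neither the natural Treg nor the naive CD4 array, and of the 63 at least 2-fold lower, 28 (44.4%), against 8.43% of all compared genes. Median log2 signals of the higher set were 7.18 on the conventional, 8.79 on the vitamin C, 6.86 on the natural Treg and 5.69 on the naive array, and those of the lower set 8.88, 7.49, 6.51 and 5.35. Of those detected on either ex vivo array, natural Treg was at least 2-fold above naive CD4 in 23 of 43 (53.5%) of the higher set and in 20 of 35 (57.1%) of the lower set, against 7.52% of all compared genes. Natural Treg was at least 2-fold below naive CD4 in 6 of 43 (14.0%) and 4 of 35 (11.4%), against 1.59% of all compared genes. Both sets thus held larger shares of genes that differ between natural Treg and naive CD4, in either direction. Both sets were also dimmer than all compared genes, whose median was 9.80 on the conventional and 9.79 on the vitamin C array. The shares were not matched for signal level, and the part of dimness in them was not tested.

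Genes of mast cells and basophils held some of the dimmest large differences. Of 15 with a probe, 4 were detected on both arrays, namely Hdc, Fcer1g, Il3ra (-0.11) and Gata1 (-0.10), and the summed linear signal of the 15 was 1192 on the conventional and 1897 on the vitamin C array. Hdc (97.0 to 602) and Fcer1g (78.3 to 294) carried this rise in linear signal. For myeloid markers the sum was 5761 and 7038, and for B cell markers 4757 and 4020. The part of these cells in the differences of Hdc and Fcer1g was not tested.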

How the data were processed

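Total RNA (550 ng) of 4 samples was amplified, labelled with biotin and hybridised to Illumina bead arrays, per the labels' protocols. Per the file headers, the deposited table of 25697 probes pairs each array's intensity with a detection p-value. The submitters' processing notes name GenomeStudio 2011.1. The deposited log2 values had no stated method, and they equal the deposited intensity put on the log2 scale and quantile-normalized. The sources used here do not say whether background was subtracted before deposit.

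Here the intensities were background-corrected and quantile-normalized over the 4 arrays by the neqc method (R 4.3.3, limma 3.58.1, offset 16, negative controls from the detection p-values), which hides a shift of most genes in 1 direction. Later steps used Python 3.11.15 with pandas 2.3.3, and were tested on simulated data. Of the probes, 23978 carried 1 gene symbol each, 23971 matched a RefSeq table and 1719 stay unnamed. The probe with the highest mean over the 4 arrays stood for its gene. Where 1 iTreg array missed a gene, its value was raised to the lowest detected signal of that array (6.16 conventional, 6.19 vitamin C). The difference is then a lower bound on the background-corrected scale. The number of arrays limits the precision, and no p-value was computed.

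The rule for named genes took 30 genes from each end of the ranking of those detected on both arrays, the 10 largest bounds each way, up to 8 members of each described list with any past 2-fold, neighbouring pairs, and genes of Treg identity, methylation and ascorbate transport. Not every gene that the rule took is printed in the text, and those of methylation and ascorbate transport are not. Genes quoted as undetected, near 0 or opposed were added after their values were seen. The comparison, its 56 gene lists and the motifs were chosen with earlier results of these data known. A list was given a direction when its median was at least 0.1 in size. The 9 alternatives, 8 of them with values of their own, changed background correction, offset, normalization, the arrays normalized together, the source of the values, the detection limit (under 0.05, on both arrays, or none) or the choice of probe.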

Additional observations from a re-analysis of the deposited data

Results flagged for a closer look

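Signals also appeared on probes that no gene table used here names, which the comparison left out. Of 1719 such probes 689 were detected on at least 1 iTreg array and 650 on both. Of the 650, 7 passed 2-fold upward on the vitamin C array and 7 passed it downward, with differences from -2.06 to 3.79 on the log2 scale. They are given as values only, and which transcripts they read was not tested.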

How the results depend on the processing

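Each group had 1 array. Without background correction 34 genes passed 2-fold upward and 20 downward, and the authors' deposited log2 values are those same values, so their 34 and 20 match by construction and the 9 alternatives hold 8 with values of their own. All of these genes were among the 73 and 63. An offset of 50 gave 54 and 45, and no detection filter gave 87 higher and 99 lower. The share of genes above 0 was 52.2% with median centring, and 77.3% of further probes agreed in side with no detection filter. The cause of these shifts was not tested. The rule for named genes took 97 genes past 2-fold, not all of them printed above. Of their 758 values under these 8, 755 lay on the same side of 0 and 672 stayed past 2-fold. The exceptions, Enam, Ccn4 and Slc2a2, are bounds that became 0 when probes were averaged. Of 27 lists with a direction, 22 kept the sign of their median under these 8, and 13 also kept a median of at least 0.1 in size. The median of T helper 2 genes turned to 0.15 with detection on both arrays. With no detection filter, cytotoxic genes turned to 0.012, effector cytokines to 0.036, interleukin receptor chains to 0.012 and myeloid markers to -0.039. The interferon gamma median was 0.85 without background correction and 0.31 with no detection filter. No paired analysis was possible because each group had a single array.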
